A study of Caenorhabditis elegans with 2 samples.

Results

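The lysosomal proton pump and lysosomal protease genes of Caenorhabditis elegans were examined for sites recovered with the tagged nuclear hormone receptor NHR-90. They were taken by symbol, as every nuclear protein-coding gene of the WBcel235 annotation named vha, cpr, asp, cpl or cpz with a number, and came to 48 of 19973 genes. Of these, 20 encode proteins of the vacuolar ATPase, named vha, and 28 encode proteases. The proteases comprise 11 cysteine proteases, of which 8 are named cpr, 1 is named cpl and 2 are named cpz, and 17 aspartic proteases, named asp. No measured value entered the choice, though earlier results of these data were known when the families were picked.

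Both samples belonged to 1 group. They were whole hermaphrodites of strain OP484, young adults taken 64 h after release from starvation-arrested first-stage larvae, and differed only as biological replicate 1 and replicate 2. Every animal carried NHR-90 with a carboxy-terminal GFP and FLAG tag, and chromatin was recovered with an antibody to GFP, per the labels, although a separate antibody field names nhr-90. An untagged or input control was not analysed here, so no level of recovery without the tagged protein stands beside these values. Whole animals mix all tissues, so a site occupied in few cells and a site weakly occupied in many cells cannot be told apart.

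The vacuolar ATPase pumps protons into lysosomes and other acidic compartments. Its V1 sector, in the cytosol, hydrolyses ATP, and its V0 sector, in the membrane, carries the protons. Cathepsins and related acid proteases work in the low pH that the pump creates, and in the worm intestine several of them also digest food. In mammals the transcription factor TFEB, and in the worm its relative HLH-30, bind E-box sequences with the core CACGTG at many lysosomal genes. GATA factors such as ELT-2 bind sites with the core GATAA, of which TGATAA is a preferred form, and drive genes of the worm intestine.

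A summit was assigned to a gene when it fell at most 1000 bp before or 500 bp after any of its transcript starts, and the gene then took the values of its strongest such peak. The signal of a peak is the number the authors deposited for it, and rank 1 marks the highest in a list. The pooled list held 30000 peaks, and its first 1441 by signal made up the authors' IDR list (IDR is the irreproducible discovery rate). That list was thus the same as a cut on pooled signal, and a peak in it need not rank high in each replicate. The replicate 1 list held 30000 peaks and the replicate 2 list held 26622. Numbers of reads were not analysed here, so depth is unknown. Lower peaks of the pooled and replicate lists may be background, and counts from them are given beside the share over all 19973 genes.

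The 100 bp windows centred on the pooled summits of 12 genes are printed first, chosen as genes with an IDR summit or as examples of the words counted further on. That of vha-13 is left out because it lies in an annotated UTR. All are on the plus strand of WBcel235, which ce11 coordinates follow, and were read from the RefSeq copy of that genome. Capitals mark matches on either strand to the E-box core CACGTG, the GATA-type word TGATAA or its core GATAA, the repeat GAGAGAG, the half-site AGGTCA, the GC box GGGNGGG and the words GGTCTC and TTTGGTC. Pump windows come first.
vha-1, chrIII:9780805-9780904: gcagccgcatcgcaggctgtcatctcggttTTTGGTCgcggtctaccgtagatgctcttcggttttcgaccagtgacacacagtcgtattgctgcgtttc
vha-8, chrIV:6790580-6790679: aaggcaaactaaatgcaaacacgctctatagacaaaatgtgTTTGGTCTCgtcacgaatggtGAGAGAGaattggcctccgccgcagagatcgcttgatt
vha-17, chrIV:9321193-9321292: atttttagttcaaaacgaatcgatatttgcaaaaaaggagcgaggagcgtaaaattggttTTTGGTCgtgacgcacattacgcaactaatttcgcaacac
vha-19, chrIV:3368850-3368949: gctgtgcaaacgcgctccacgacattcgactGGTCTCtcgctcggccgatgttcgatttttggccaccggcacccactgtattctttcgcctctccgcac
vha-15, chrX:2237569-2237668: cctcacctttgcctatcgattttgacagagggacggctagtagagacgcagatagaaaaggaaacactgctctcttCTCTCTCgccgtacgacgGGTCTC
vha-2, chrIII:9782180-9782279: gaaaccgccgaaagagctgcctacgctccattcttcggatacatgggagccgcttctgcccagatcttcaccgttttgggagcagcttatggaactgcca

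The protease windows follow, with the same marking. Those of cpr-4, cpl-1 and cpr-3 hold matches to TGATAA, those of asp-1 and cpr-9 hold no match, and cpr-9 is shown because its summit lies in a tRNA gene.
cpr-4, chrV:6614547-6614646: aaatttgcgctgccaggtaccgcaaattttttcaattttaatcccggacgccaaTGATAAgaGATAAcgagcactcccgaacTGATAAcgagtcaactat
cpl-1, chrV:16595510-16595609: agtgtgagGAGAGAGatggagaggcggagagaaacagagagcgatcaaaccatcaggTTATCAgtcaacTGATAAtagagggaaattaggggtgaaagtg
cpr-3, chrV:15298747-15298846: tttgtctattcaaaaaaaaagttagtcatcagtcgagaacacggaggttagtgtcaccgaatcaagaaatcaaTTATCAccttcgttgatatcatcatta
asp-12, chrV:8270036-8270135: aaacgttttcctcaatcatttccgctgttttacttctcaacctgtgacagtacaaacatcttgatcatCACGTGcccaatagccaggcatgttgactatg
asp-1, chrV:19050748-19050847: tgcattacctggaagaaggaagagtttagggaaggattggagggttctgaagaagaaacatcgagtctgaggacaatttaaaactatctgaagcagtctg
cpr-9, chrV:12002142-12002241: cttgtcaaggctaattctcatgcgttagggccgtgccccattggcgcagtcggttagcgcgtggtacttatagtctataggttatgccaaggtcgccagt

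Of the 48 genes, 8 (16.7%) had an IDR summit at a start, against 3.62% of all nuclear protein-coding genes. Pump genes accounted for 4 of 20 (20%) and proteases for 4 of 28 (14.3%). The difference in share between these families was 5.71 percentage points, and a single pump gene more or less moves it by 5 points, so no order between the families is read from it. By protease class, 2 of 11 cysteine proteases and 2 of 17 aspartic proteases had one. Among genes with any pooled summit, an IDR summit was found at 4 of 18 pump genes and 4 of 22 proteases, against 8.62% over all genes.

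The 4 pump genes with an IDR summit were those for the catalytic A subunit and the E subunit of V1 and for a pair of proteolipid c subunits of V0. The A subunit gene vha-13 (WBGene00013025, V 14351709 to 14354422) had the highest pump signal, 211 at rank 279, with signals of 140 in replicate 1 and 70.4 in replicate 2. Its summit lay at -535 bp from the start, in the annotated 3′ UTR of cept-2, and at -533 and -536 bp in the replicates. The proteolipid gene vha-1 (WBGene00006910, III 9781254 to 9781763) had a pooled signal of 197 at rank 341, and signals of 108 and 91 in replicates 1 and 2. That summit was intergenic, at -399 bp from vha-1 and at -501 bp from sqv-3, the neighbour on the other side. By rank vha-13 was at 190 and 571 in replicates 1 and 2, and vha-1 at 405 and 292.

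Another proteolipid gene, vha-2 (WBGene00006911, III 9782164 to 9783224), lies just downstream of vha-1 on the same strand. It had a separate peak with a signal of 132 at rank 816, and signals of 70 and 63 in replicates 1 and 2. Its summit fell at 66 bp, in the coding sequence of vha-2, and was also in the window of R10E11.6. The proteolipid gene vha-3 is 85.1% identical to vha-2 over 483 aligned coding bases, and their longest shared run was 23 bases. All 36-base words of the vha-2 window occurred once in the nuclear genome. The peak of vha-3 was weaker, with a pooled signal of 41.8 at rank 6666 and replicate signals of 25.8 and 20.1. Whether reads of 1 gene were placed at the other was not tested. The E subunit gene vha-8 (WBGene00006917, IV 6791074 to 6792455) had a signal of 130 at rank 858, with 72.3 and 60.7 in the replicates. Its summit lay at -444 bp from vha-8 and nearer to C17H12.2, at -142 bp.

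**Figure D1:**
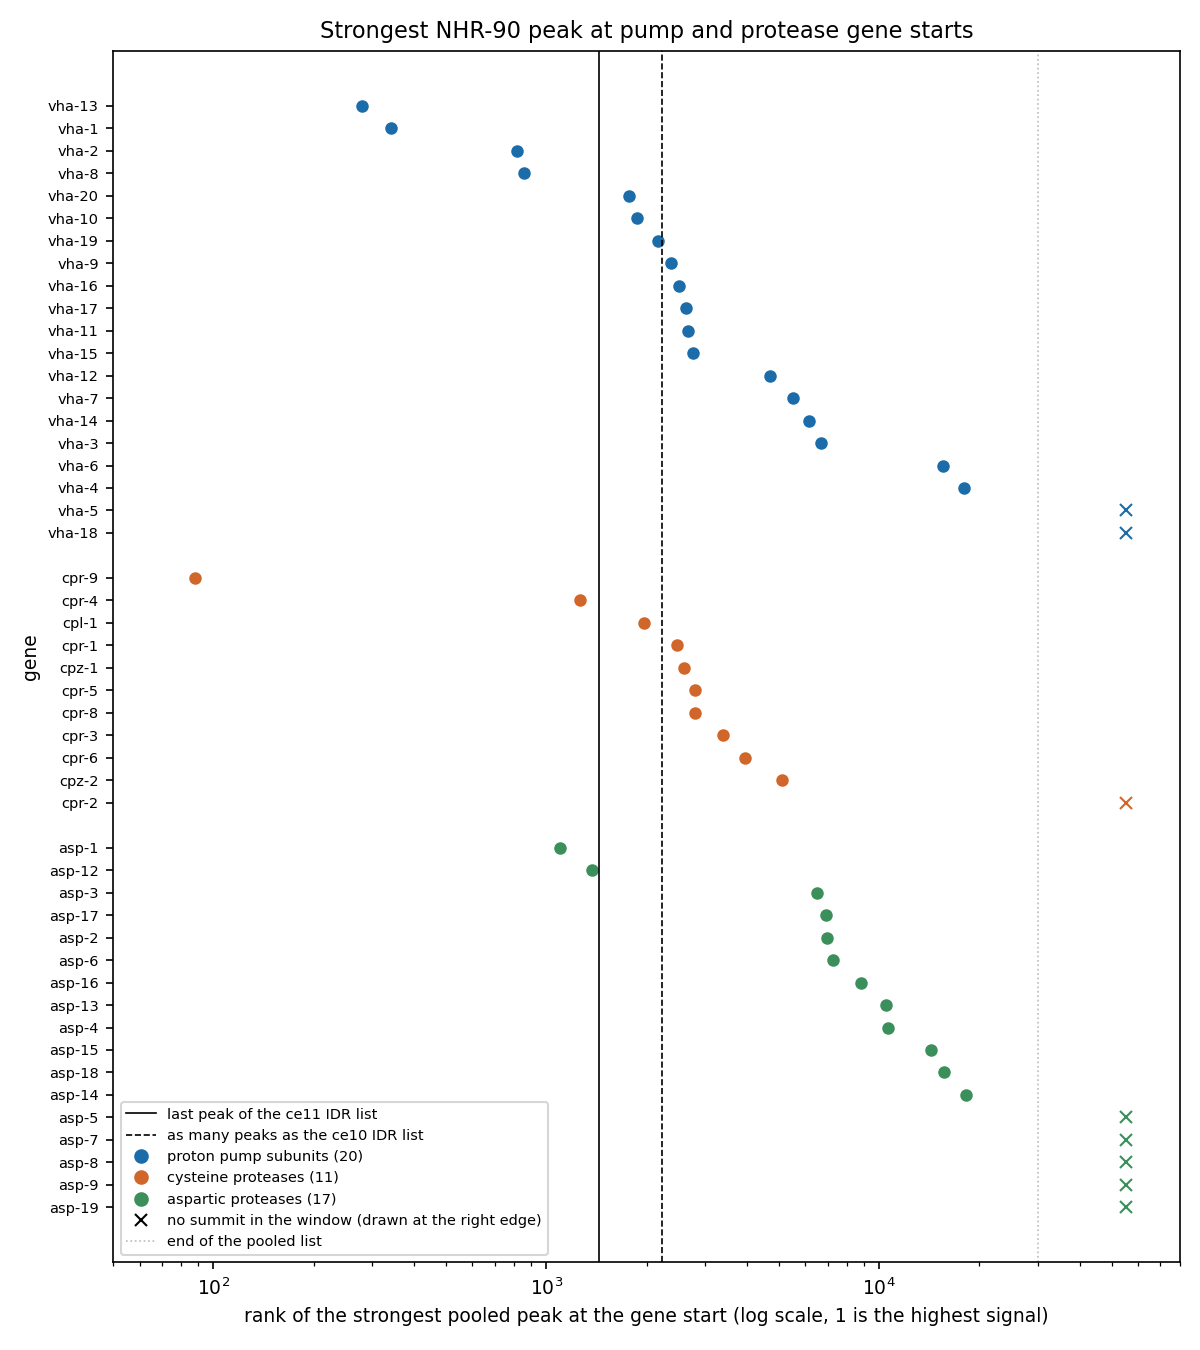
Rank of the strongest pooled peak at the start of each of the 48 genes, on a log axis where 1 is the highest signal; crosses are genes with no summit in the window. Pump genes and cysteine proteases gather at and just past the end of the IDR list (solid line, rank 1441), while no aspartic protease lies between ranks 1369 and 6508.

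Longer stretches of the pooled list were counted next. With the 2232 strongest pooled peaks, as many as the IDR list on the older ce10 build holds, 7 of 20 pump genes (35%) and 5 of 28 proteases (17.9%) had a summit, against 5.76% of all genes. The gap between the families was not in both replicates. With as many peaks of replicate 1 alone, 8 pump genes (40%) and 6 proteases (21.4%) had a summit, against 5.82% of all genes. In replicate 2 alone, 5 pump genes (25%) and 7 proteases (25%) did, against 5.66%. In the pooled list, the added pump genes were vha-20, for an accessory subunit (signal 88.1, rank 1773), vha-10, for the G subunit of V1 (85.1, rank 1876), and vha-19, for the other accessory subunit (77.6, rank 2164). The vha-20 summit lay at -975 bp, near the edge of the window and in the coding sequence of sym-4. In the 500 bp before its start the strongest vha-20 signal was 29.3. The vha-10 summit lay at -433 bp, in an intron of trpp-8. The added protease was cpl-1, a cathepsin L-like enzyme (82.6, rank 1967). All 12 of these genes had a matching peak in the ce10 IDR list, with the same chromosome, width and summit offset and a signal within 0.1%, and none was found for the other 36 genes. The limit was the length of that list and both builds hold the same samples, so the match is no separate support.

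Within the first 3000 pooled peaks, a limit chosen after the values were seen, 12 of 20 pump genes (60%) and 9 of 28 proteases (32.1%) had a summit, against 7.62% of all genes. Of the pump genes, 8 ranked between the end of the IDR list and 3000, and 4 were in the IDR list. The pump count was lower in each replicate alone: with 3000 peaks it was 10 (50%) in replicate 1 and 7 (35%) in replicate 2, while proteases numbered 7 (25%) and 10 (35.7%), against 7.58% and 7.43% of all genes. In the pooled list the proteases divided by class: 7 of 11 cysteine proteases (63.6%) but 2 of 17 aspartic proteases (11.8%) were within it. In replicates 1 and 2 these were 5 (45.5%) and 7 (63.6%) of the cysteine proteases, and 2 (11.8%) and 3 (17.6%) of the aspartic proteases. The pump genes added last were vha-9, vha-16, vha-17, vha-11 and vha-15, for the F, d, e, C and H subunits, with signals from 67.7 to 73.4. With genes that lack a summit placed last, the median rank was 2644 for pump genes, 2802 for cysteine proteases and 10610 for aspartic proteases, while 11583 of all 19973 genes had no pooled summit at all.

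**Figure D2:**
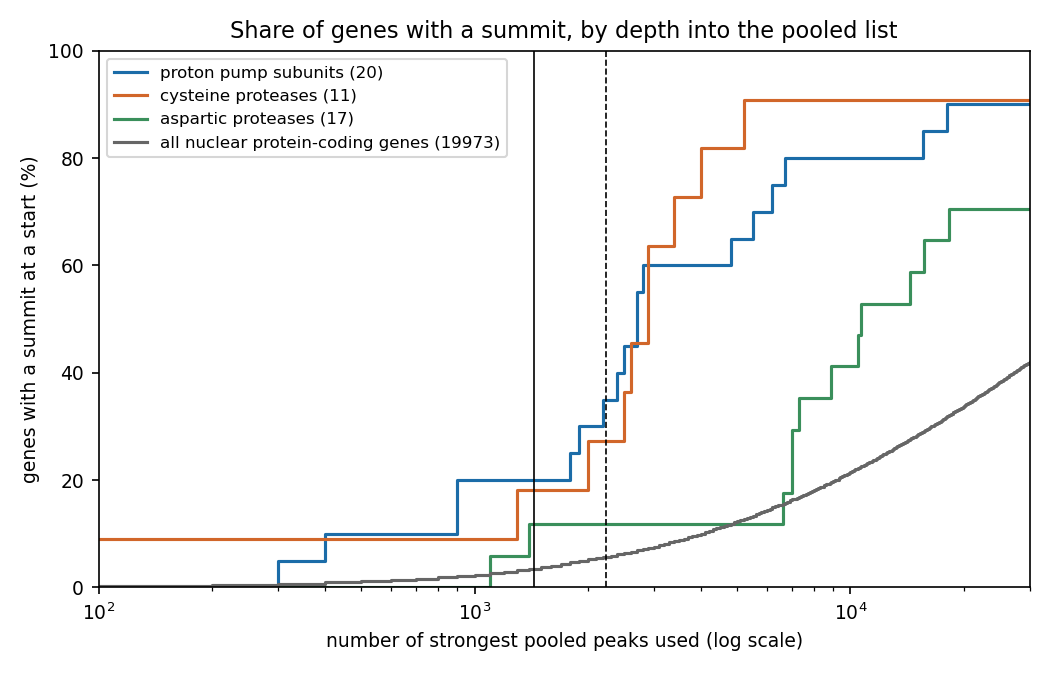
Share of genes with a summit at a start (vertical axis, percent) when the strongest pooled peaks up to a given number are used (horizontal log axis); the solid line is at 1441 peaks and the dashed line at 2232. At 3000 peaks pump genes reach 60% and cysteine proteases 63.6%, against 11.8% of aspartic proteases and 7.62% of all genes; in replicate 2 alone, not drawn, pump genes reach 35%.

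In V1, 2 of 9 genes had an IDR summit and 6 had one within rank 3000. In V0 these were 2 of 9 and 4, and both accessory subunit genes were within rank 2232, that of vha-20 through its summit in sym-4. Of the V0 a subunits, vha-5 had no summit in any list, vha-6, the a subunit of the intestine, had a signal of 25.9 at rank 15591, and vha-7 had 46.2 at rank 5497. The a subunit gene unc-32, which the symbol rule left out, ranked 13278 with a signal of 28.5. Of the H subunits, vha-15 ranked 2759 with a signal of 67.7, whereas vha-18 had no pooled or replicate 1 summit and a signal of 14 at rank 14771 in replicate 2. The remaining pump genes, vha-12 for the B subunit, vha-14 for the D subunit and vha-4 for a V0 proteolipid, ranked 4701, 6154 and 18021.

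Among the cysteine proteases, IDR summits were found at cpr-9 and cpr-4, both cathepsin B-like. The peak of cpr-9 (WBGene00010204, V 12003053 to 12004584) was the strongest of all 48 genes, with a signal of 321 at rank 88 and replicate signals of 192 and 126. Its summit was at -861 bp from cpr-9 and inside a tRNA gene, WBGene00014406, at bases 12002176 to 12002260, and the start of gcy-33 was nearer, at -395 bp. A weaker IDR summit at -657 bp, at base 12002396, had a signal of 102 at rank 1381. It was not within 100 bp of a tRNA, snoRNA or snRNA gene. Its peak, from 12002171 to 12002620, nevertheless covers the same tRNA gene. The strongest one was the only strongest pooled summit of a member within 100 bp of a tRNA, snoRNA or snRNA gene, and the only one whose 36-base words were not all unique (92.3%). The peak of cpr-4 (WBGene00000784, V 6614674 to 6615851) had a signal of 106 at rank 1266, replicate signals of 56.2 and 49.8, and an intergenic summit at -77 bp. No other start window held the cpr-4 summit.

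The other cysteine proteases had weaker peaks or none. Past cpl-1, the gene cpr-1 had a signal of 71.6 with its summit at 163 bp, and cpz-1, a cathepsin Z-like enzyme, had 70 at -24 bp. The neighbouring and divergent genes cpr-5 and cpr-8 shared 1 peak with a signal of 66.9, at 110 bp from the start of cpr-5 and -676 bp from that of cpr-8. Signals of 60.3, 55.1 and 48 were found at cpr-3, cpr-6 and cpz-2, the last nearer to the start of ifbp-1. The gene cpr-2 had no summit in any list.

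Of the aspartic proteases, asp-1 and asp-12 had IDR summits. The gene asp-1 (WBGene00000214, V 19049562 to 19050752), for a protease of the intestine, had a pooled signal of 114 at rank 1096 with its summit at -46 bp. Its signal was 100 at rank 481 in replicate 1 and 31.7 at rank 2940 in replicate 2, so its rank was higher in replicate 1. The gene asp-12 (WBGene00017678, V 8269210 to 8272056) had 102 at rank 1369, with 53.8 and 44.9 in the replicates. That summit lay in an intron of asp-12, at -557 bp from the nearest of its 2 starts. The strongest peak of asp-6, with a signal of 39.8 at rank 7288, was also in the asp-12 window. The cathepsin D-like gene asp-4 had a signal of 32.6 at rank 10610 and asp-3 had 42.3 at rank 6508. The pooled list held no summit at asp-5, asp-7, asp-8, asp-9 or asp-19, and asp-8 and asp-9 had none in any list. At asp-5 the replicates had different summits, at 481 bp with a signal of 26.8 in replicate 1 and at -81 bp with 13.8 in replicate 2.

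The pooled list as a whole reached 18 of 20 pump genes (90%) and 22 of 28 proteases (78.6%), against 42.0% of all genes. The replicate 1 list reached 17 pump genes and 24 proteases (background 42.3%), and the replicate 2 list reached 19 and 20 (background 41.8%). In both replicate lists were 17 pump genes, 10 of 11 cysteine proteases and 9 of 17 aspartic proteases, against 31.0% of all genes. Proteases lay on chromosome V in 22 of 28 cases (78.6%), against 25% of all genes. Of all genes there, 32.4% had a pooled summit, against 45.2% of genes elsewhere. Of the proteases, 17 of 22 on chromosome V (77.3%) and 5 of 6 elsewhere (83.3%) had one. Pump genes were spread over all 6 nuclear chromosomes.

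Replicates were compared by the first peaks of each list. Taking the first 1441 peaks of each replicate list alone, the 4 pump genes with an IDR summit were found in both replicates. Among proteases, replicate 1 gave cpr-9 and asp-1, and replicate 2 gave cpr-9, cpr-4, cpr-5, cpr-8 and cpl-1, so that cpr-9 was the only protease found in both. The background was 3.74% of all genes in replicate 1, 3.49% in replicate 2 and 2.44% in both. For cpr-5 and cpr-8, the shared peak had a signal of 21.7 at rank 10120 in replicate 1 and 50.9 at rank 1124 in replicate 2. That of cpl-1 was 51.6 at rank 1882 and 67 at rank 643, with summits at -192 and -6 bp.

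Below the IDR list, vha-16 and vha-10 were higher in replicate 1 by rank and signal. The gene vha-16 had a signal of 54 at rank 1730 there and 11.7 at rank 19845 in replicate 2, and vha-10 had 56.5 at rank 1583 and 20.8 at rank 7019. For vha-20 the summits differed, at -961 bp in replicate 1 and 117 bp in replicate 2. By contrast vha-19 ranked 1998 and 2144. Of 17 pump genes in both lists, 12 ranked higher in replicate 1, and of 19 proteases, 8 did. That share was not counted over all genes, the lists differ in length, and cpr-5 and cpr-8 enter with the same peak. No lean of either family to a replicate is read from these counts. The median ratio of the larger to the smaller rank was 1.4 for pump genes and 1.96 for proteases, against 1.66 over 6193 genes in both lists. Of the 2 replicate lists, 5 aspartic proteases were found in that of replicate 1 alone, asp-15, asp-16, asp-17, asp-18 and asp-19, with ranks from 4887 to 22244, and asp-7 was found in replicate 2 alone.

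**Figure D3:**
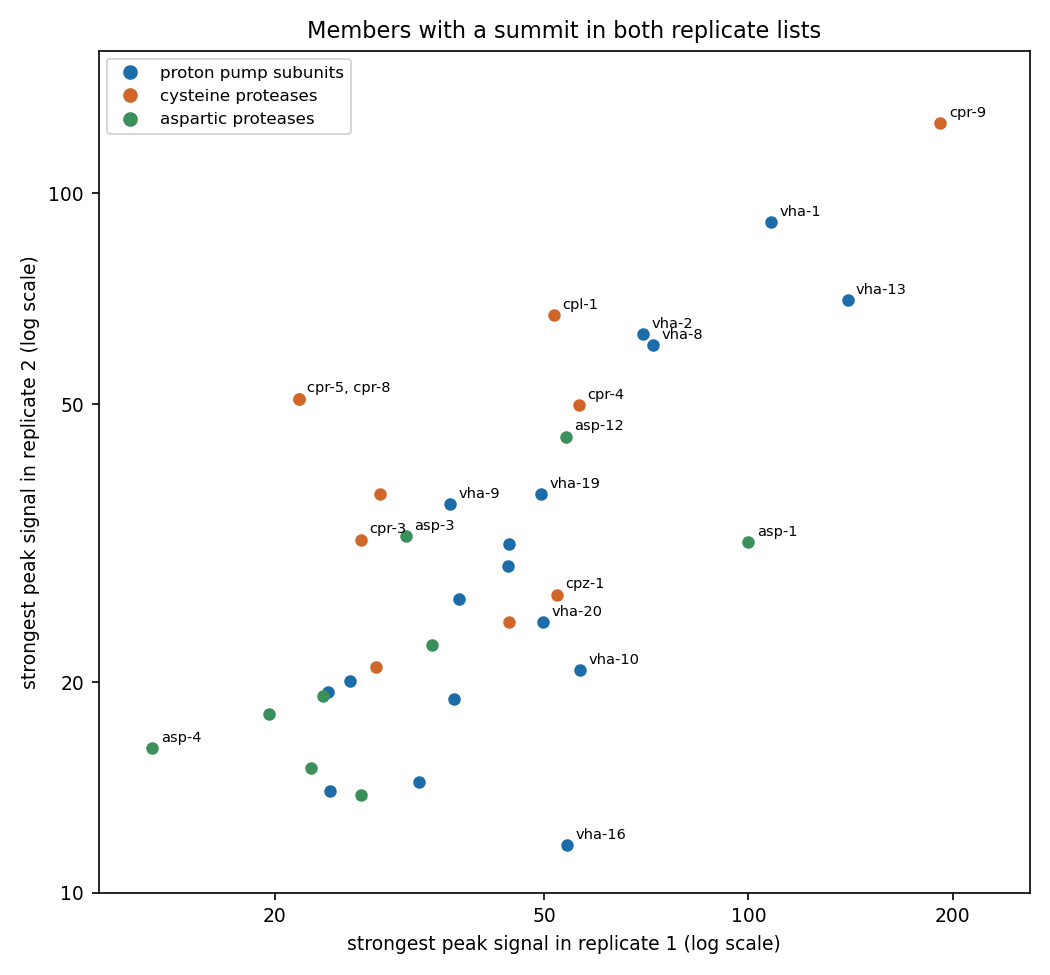
Strongest peak signal in replicate 1 (horizontal) and replicate 2 (vertical), both log axes, for the members with a summit in both replicate lists; each point is a gene. The pump genes vha-1, vha-2, vha-8 and vha-13 are high in both, asp-1 and vha-16 are high in replicate 1 alone, and cpr-5 and cpr-8, which share a peak, are high in replicate 2 alone.

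Of 18 pump genes with a pooled summit, 15 (83.3%) had it upstream, with a median offset of -294.5 bp. Of 22 proteases, 13 (59.1%) did, with a median of -41 bp. Over the 8390 genes with a pooled summit, 67.6% lay upstream, with a median of -168 bp. A summit fell in coding sequence at 5 pump genes (27.8%) and 11 proteases (50%), against 26.1% over all genes. The aspartic proteases asp-2, asp-3, asp-6, asp-15, asp-16 and asp-17 had it inside their own coding sequence, between 74 and 393 bp from the start. Another gene's window held the same peak at 6 of 18 pump genes and 5 of 22 proteases, against 2526 of 8390 over all genes. Another gene's start was nearer at 3 pump genes and 4 proteases, which was not counted over all genes.

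**Figure D4:**
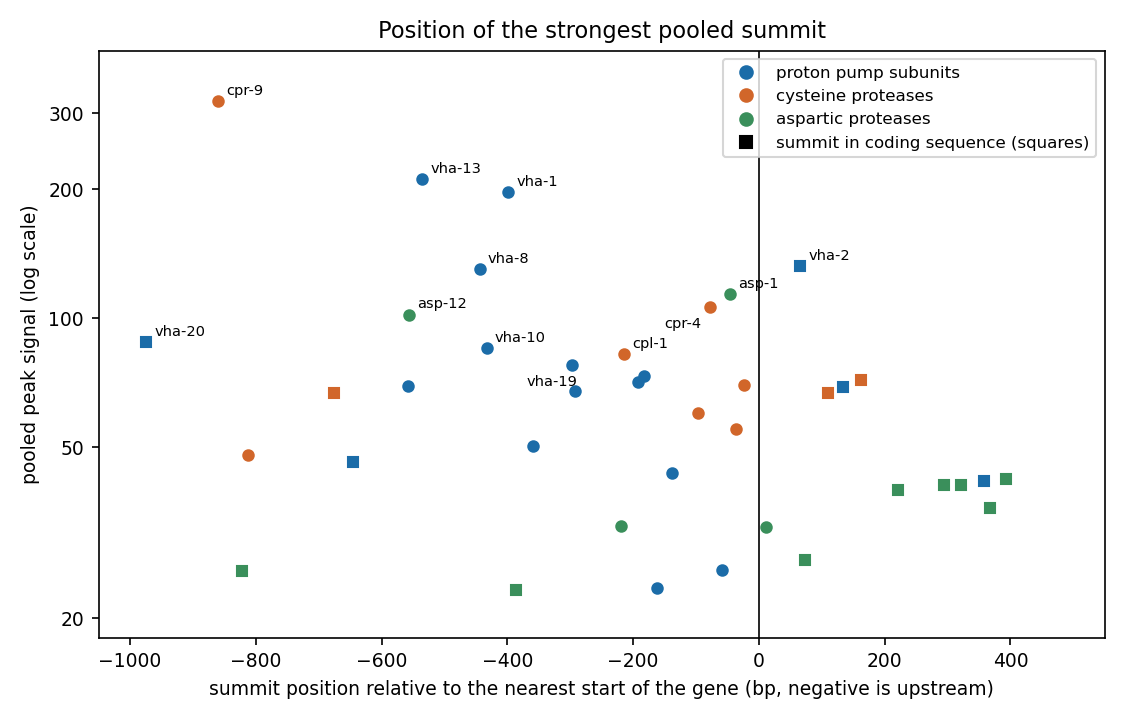
Position of the strongest pooled summit relative to the nearest start of the gene (horizontal axis, bp, negative is upstream) against its pooled signal (vertical log axis), for the 40 genes with a pooled summit; squares are summits in coding sequence. The strongest pump summits, apart from that of vha-2, lie between -535 and -399 bp, and 6 aspartic proteases have theirs inside their own coding sequence between 74 and 393 bp.

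GATA-type words were counted next. In the 300 bp from 250 bp before to 50 bp after the outermost start, TGATAA on either strand was found at 25 of 28 proteases (89.3%) and 4 of 20 pump genes (20%), against 30.2% of all genes. All 11 cysteine proteases and 14 of 17 aspartic proteases held it, and asp-1, asp-15 and asp-17 did not hold it. At least 2 copies were found at 8 of 11 cysteine proteases, 5 of 17 aspartic proteases and 1 of 20 pump genes, against 7.73% of all genes. The pump gene with 2 copies was vha-6, the a subunit of the intestine, and cpr-3, cpr-4 and asp-9 each held 4.

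The same letters were found under part of the protease summits. In the 100 bp windows, TGATAA was in 7 of 21 distinct protease summits (33.3%) and 0 of 18 pump summits, against 11.1% of 7249 distinct strongest summits over all genes. For cysteine proteases it was 5 of 9 (55.6%), with 2 copies each at cpr-4, cpl-1 and cpr-6, as the printed cpr-4 and cpl-1 windows show. Its core GATAA, which every TGATAA contains, was in 9 of 21 protease and 3 of 18 pump windows, against 22.2%. Over all genes, IDR summits were at 3.3% of genes whose promoter held TGATAA and 3.76% of those whose promoter did not. Of the 25 protease promoters that held it, 3 had an IDR summit.

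The GA repeat GAGAGAG was in 4 of 18 pump windows (22.2%), those of vha-8, vha-13, vha-15 and vha-16, and in 1 of 21 protease windows, that of cpl-1, against 4.29% over all genes and 7.38% of 1422 nuclear IDR summits. Of the 956 nuclear IDR summits not within 100 bp of a tRNA, snoRNA or snRNA gene, 10% held it. A pair of words noticed in the pump windows after they were read, GGTCTC and TTTGGTC, were in 4 and 3 of the 18, against 4.91% and 1.12% over all genes. The first was at vha-8, vha-15, vha-16 and vha-19 and the second at vha-1, vha-8 and vha-17, and they overlap in the printed vha-8 window. In protease windows each was in 1 of 21. The median GC content was 51.5% in pump windows, 45% in protease windows, 42% over all genes and 49% in nuclear IDR summits. Its part in these counts was not tested.

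The E-box core CACGTG was in 0 of 18 pump windows and 1 of 21 protease windows, that of asp-12, against 3.13% over all genes. In the 300 bp promoters it was at 0 of 20 pump genes and 2 of 28 proteases, cpr-1 and cpr-9, against 5.82%. The longer TCACGTGA, which contains it, was in none of these windows, and was in 0.756% of all promoters. The nuclear receptor half-site AGGTCA was in 0 of 18 pump windows and 1 of 21 protease windows, that of cpz-2, against 2.59%. The GC-rich word GGGNGGG was in 1 pump window, that of vha-9, and in no protease window, against 2.88%. These matches describe letters in short windows and say nothing of which factor is bound.

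Other genes of the lysosome, in 5 lists of 96 genes in all, had an IDR summit in 2 cases (2.08%, against the 3.62% above) and one within rank 2232 in 7 (7.29%, against the 5.76% above). The 2 were rab-7 (WBGene00004271), for a GTPase of late endosomes and lysosomes, with a signal of 204 at rank 304 and 136 and 66.1 in the replicates, and rheb-1 (WBGene00010038), for a GTPase that activates TOR, with 150 at rank 627 and 81.1 and 70.3 in the replicates. Of 31 genes for other hydrolases, 0 had an IDR summit and 13 (41.9%) had a pooled summit, a share near that of all genes. Of 19 membrane and transport genes 0 had an IDR summit and 9 (47.4%) had a pooled one, against 42.0% of all genes. Of 24 trafficking genes 1 (4.17%) had an IDR summit and 18 (75%) a pooled one. For 19 regulators these were 1 (5.26%) and 16 (84.2%). Pooled shares of pump genes and proteases were 90% and 78.6%. The last list of 3 holds unc-32, spe-5, a B subunit gene, and tag-196, a cathepsin F-like gene, none with an IDR summit. Among the regulators, and named after the values were seen, hlh-30 ranked 1498 with a signal of 96.9, just past the end of the IDR list, and mxl-3 ranked 1747 with 88.7. The hlh-30 summit lay at -986 bp, near the edge of the window. With rheb-1 these were the only 3 of 19 regulators within rank 2232. The regulators elt-2, mxl-1 and let-363 had no pooled summit, though elt-2 ranked 1007 in replicate 2.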

How the data were processed

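Peak lists on ce11 were used as deposited. Per the text records and titles, the authors made a list per replicate, a list from both replicates and an IDR list, from the samples' alignments and a further file not analysed here. No source used here gives the peak caller, aligner, IDR threshold or read depth. Column 7 is the deposited peak signal, column 9 the deposited −log10 q-value, which does not rank the top peaks because 2783 pooled peaks share its highest value of 2.79, and column 10 the deposited summit offset in bp. Of the ce10 lists, only the IDR list was used, for its 2232 peaks and for matching by chromosome, width, offset and signal; no coordinate was converted.

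Genes and transcript starts came from Ensembl release 115 and sequence from RefSeq, both WBcel235; no nuclear peak ended past a chromosome end. Genes were scored with Python 3.11.15 and NumPy 2.4.6, for all 19973 genes at once. The placement of peaks at starts was tested on simulated data. Members of 1 group allow no contrast, so no test was run: counts stand beside the share over all genes, and genes are not replicates.

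Members, lists and words were chosen with earlier results of these data known. Genes were named when they had an IDR summit, ranked within 2232 in the pooled list, were among the 4 highest-ranked of pump or protease, had no pooled summit, ranked within 1441 in 1 replicate alone, shared a peak or were the related copies vha-2 and vha-3; others are named to complete a family. The alternatives were other windows, peak overlap, nearest start, shorter and longer lists, summits at small-RNA genes left out, each replicate alone and wider sequence windows.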

Additional observations from a re-analysis of the deposited data

How the results depend on the processing

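The counts of IDR summits moved with the window and with the length of the list. Of 4 pump genes and 4 proteases, 2 and 2 were left when summits had to lie in the 500 bp before a start (background 2.09%), and 2 and 1 among the 720 strongest peaks (1.69%). The 2232 strongest pooled peaks gave 7 pump genes, and a difference in share of 17.1 percentage points in place of 5.71. With as many peaks, an alternative added after the data were seen, replicate 1 alone gave 8 pump genes, 6 proteases and a difference of 18.6 points, and replicate 2 alone gave 5, 7 and 0. With 3000 peaks, also added later, the pooled list gave 12 pump genes, 9 proteases and 27.9 points, replicate 1 alone 10, 7 and 25, and replicate 2 alone 7, 10 and -0.714. Without replicate 1 the shares of the families were thus nearly equal, at 35% and 35.7%. With 1441 peaks each replicate alone gave 4 pump genes and from 2 to 5 proteases, and differences from 2.14 to 12.9 percentage points. Without replicate 2, and so in replicate 1 alone, proteases with a summit were cpr-9 and asp-1. With summits at small-RNA genes left out both counts stayed at 4 (background 2.88%), since cpr-9 kept its weaker IDR summit. The peak of that summit still covers the tRNA gene. The wider window, peak overlap, nearest start and protein-coding transcript starts kept both counts within 1.5 times. The wider window gave 5 pump genes and 6 proteases (background 5.46%), and peak overlap gave 5 and 5 (4.08%). No background was counted for the nearest start or for protein-coding transcript starts. Pooled summits with the 500 bp window numbered 12 in place of 22 at proteases, and 15 in place of 18 at pump genes. The share over all genes was not counted for pooled summits in that window, so neither fall has a background.

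Motif counts moved more. In 200 bp windows TGATAA was in 3 of 18 pump and 8 of 21 protease windows, and GATAA in 10 and 12. GAGAGAG was in 4 pump and 2 protease windows, and AGGTCA in 0 and 3. No share over all genes was counted at that width, so these counts have no background. With the summits of 1 replicate alone, there were 17 pump and 23 protease windows in replicate 1, and 19 and 19 in replicate 2. Pump windows held CACGTG in 0 to 1, TGATAA in 0 to 2, GATAA in 2 to 6 and GAGAGAG in 2 to 4 cases. Protease windows held TGATAA in 4 to 6, GAGAGAG in 0 to 1 and AGGTCA in 2 cases. These counts have no background either. The causes were not tested. The strongest signal of the 12 genes within rank 2232 moved in 3 of 21 comparisons with other windows, at vha-2, vha-20 and asp-12, and vha-2, vha-13 and cpr-9 had no pooled summit in the 500 bp window. No paired analysis was possible because there is 1 group. Unknown depth limits what missing or weak peaks show.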
